A study of Rattus norvegicus with 4 samples.

Results

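Complement is a cascade of plasma and tissue proteins that marks particles and microbes for uptake. The 9 genes described here encode the 3 chains of C1q (C1qa, C1qb and C1qc), the proteases C2 and factor B (Cfb), the central component C3, properdin (Cfp) and the receptors for the anaphylatoxins C3a and C5a (C3ar1 and C5ar1). They were chosen by name, as the probes whose accession belongs to these rat RefSeq symbols, and all 9 were found among 16526 named genes. They were read by 10 of 45385 probes: C3ar1 by 2 probes and each other gene by 1. C1qa and C1qb were printed on 10 spots each and every other probe on 1 spot.

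The arrays hold RNA of NR8383, a line of rat alveolar macrophages started from lung lavage of a normal rat and labelled with 20 passages. They had received particles of ZnFe2O4 (zinc iron oxide, NRCWE021) at a dose of 17 µg/mL, with an exposure time of 4 h. Each of the 4 arrays is 1 biological replicate of this 1 group, and nothing says whether the cultures were started separately. The series is described as a comparison with unexposed cells, whose arrays were not analysed here. All values therefore describe exposed cells of 1 line, with no fold change against a control.

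Complement can be started in 3 ways. In the classical pathway C1q binds a surface and its partner proteases C1r and C1s cut C4 and C2, and the lectin pathway reaches the same step through collectins or ficolins and their proteases. In the alternative pathway factor D cuts factor B once it is bound to C3b, and properdin stabilises the resulting enzyme. Each route ends in the cleavage of C3, and the small fragments C3a and C5a act on receptors of leukocytes. The liver supplies most plasma complement, while macrophages make C1q, properdin, factor B, C2 and C3 locally.

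Detection on an array was read from the scanner's flag for a spot well above background, and a gene is called flagged here where it carries that mark. Of the 9 genes, 4 were flagged on all 4 arrays: Cfp, C2, Cfb and C5ar1. The same call was made for 42.4% of the 16526 named genes, so a count of 4 of 9 (44.4%) lies near the background share. On single arrays 5, 9, 7 and 4 of the 9 genes were flagged on replicates 1 to 4, against 52.2%, 91.5%, 75.3% and 46.2% of all named genes. C3 was flagged on replicates 1, 2 and 3, which made 5 of 9 genes on at least 3 arrays, beside 49.7% of all. C1qa and C1qb were flagged on replicates 2 and 3 but missed both others, a pattern shared by 27.7% of all named genes. C1qc and C3ar1 were flagged on replicate 2 alone.

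The flag did not carry the same weight on every array. The slides carry 96 probes for ERCC sequences, which are synthetic control RNAs and match no rat gene, each printed on many spots. No label says that these RNAs were added. On replicates 1 and 4 the flag was set for 1.04% of the ERCC probes, and on replicates 2 and 3 for 86.5% and 63.5%. The median ERCC signal was 4.02, 354, 88.6 and 3.62 intensity units on replicates 1 to 4, and its 95th percentile was 7.37, 1060.0, 216 and 5.20. Negative control spots stayed low, with medians of 3.45, 23.0, 12.9 and 3.34. Signals on replicates 2 and 3 are therefore given beside the ERCC probes. Signals of different probes also depend on how each probe binds, so the ERCC percentile serves as a threshold and not as a ranking of genes.

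**Figure D1:**
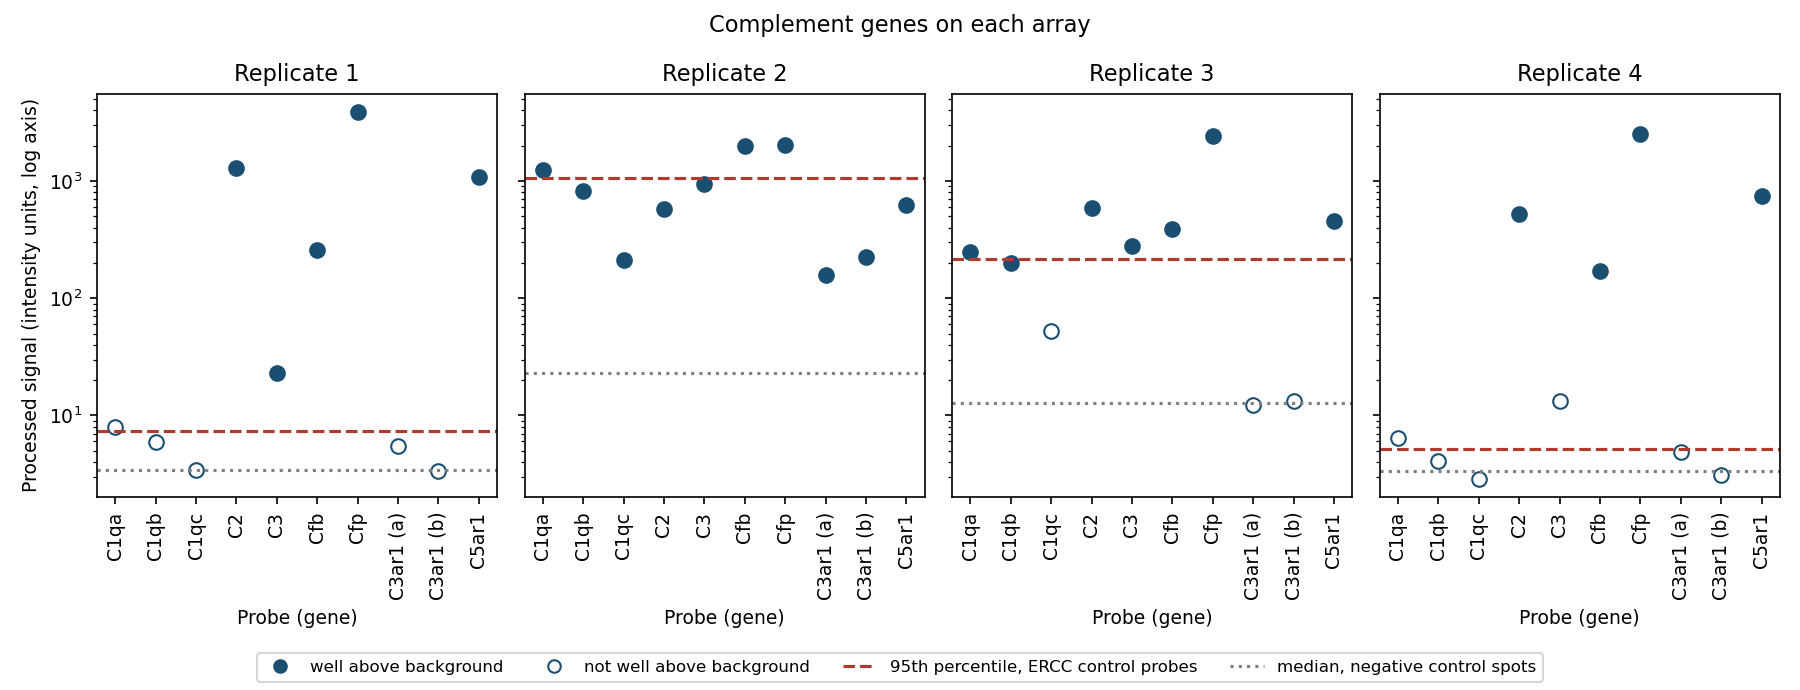
Processed signal (background-subtracted intensity, log axis) of the 10 probes on each of the 4 arrays. Filled points were flagged as well above background and open points were not; the dashed line is the 95th percentile of the ERCC control probes and the dotted line the median of the negative control spots. C1qa, Cfp and Cfb lie above the dashed line on every array, and C1qb, C1qc and both C3ar1 probes lie below it on every array.

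Sequence upstream of the transcription start was on hand for 5 of the 9 genes, and 4 of these are shown because their genes differed in detection. Cfp was detected on every array, C3 on 3 of 4, and C1qa and C1qb on neither of the arrays with a low control signal. The 250 bases before the start come from RefSeq (GRCr8), with Cfp at chrX:3715301-3715550 (plus strand), C3 at chr9:2201340-2201589, C1qa at chr5:154419934-154420183 and C1qb at chr5:154407828-154408077 (all minus strand). Each is printed 5′ to 3′ on the strand of the gene, and capitals mark matches, on either strand, to 3 motifs of factors active in macrophages.
Cfp: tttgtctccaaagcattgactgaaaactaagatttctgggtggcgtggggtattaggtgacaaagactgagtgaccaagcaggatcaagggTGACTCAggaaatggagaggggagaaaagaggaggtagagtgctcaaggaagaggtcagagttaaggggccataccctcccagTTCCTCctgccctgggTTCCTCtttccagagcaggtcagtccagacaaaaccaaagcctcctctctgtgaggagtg
C3: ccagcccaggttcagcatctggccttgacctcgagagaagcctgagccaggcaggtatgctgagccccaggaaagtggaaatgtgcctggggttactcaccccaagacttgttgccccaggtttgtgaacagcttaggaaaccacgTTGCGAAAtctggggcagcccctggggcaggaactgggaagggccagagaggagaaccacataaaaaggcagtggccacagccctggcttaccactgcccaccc
C1qa: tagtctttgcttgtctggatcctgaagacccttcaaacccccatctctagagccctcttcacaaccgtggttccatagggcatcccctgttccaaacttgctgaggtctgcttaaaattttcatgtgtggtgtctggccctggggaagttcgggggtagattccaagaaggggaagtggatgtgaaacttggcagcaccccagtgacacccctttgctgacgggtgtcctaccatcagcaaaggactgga
C1qb: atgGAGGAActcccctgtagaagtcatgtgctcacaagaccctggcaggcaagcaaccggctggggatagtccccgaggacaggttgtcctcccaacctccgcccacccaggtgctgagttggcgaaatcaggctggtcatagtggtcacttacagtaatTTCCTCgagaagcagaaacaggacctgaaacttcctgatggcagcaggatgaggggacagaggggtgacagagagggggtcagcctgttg

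The motifs were GAGGAA, a core bound by PU.1 and other ETS factors, TTGCNNAA for C/EBP factors and TGANTCA for AP-1. GAGGAA occurred 2 times upstream of Cfp (76 and 60 bases before the start) and 2 times upstream of C1qb (247 and 90 bases before it). Of 33469 upstream windows of the same length, 23.3% held this motif. AP-1 letters stood 159 bases before the start of Cfp and occurred in 6.34% of all windows. The C/EBP letters stood 104 bases before the start of C3 and occurred in 9.22% of all windows. The C1qa window held none of the 3 motifs, and no match overlapped another. Upstream of C3ar1, not printed, the AP-1 letters stood 72 bases before the start. A match describes letters only, and no binding was measured.

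C1qa, C1qb and C1qc encode the chains that assemble into C1q, the recognition molecule of the classical pathway. They are direct neighbours on rat chromosome 5. The C1qa probe had signals of 7.96, 1233, 246 and 6.48 on replicates 1 to 4. The C1qb probe had signals of 5.96, 815, 198 and 4.11. The C1qc probe had signals of 3.46, 211, 52.2 and 2.89. All 3 probes were highest on replicate 2, followed by replicate 3, which is also the order of the ERCC control probes.

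Beside the ERCC probes, the 3 chains differed. C1qa exceeded the 95th percentile of these probes on all 4 arrays. It was not flagged on replicates 1 and 4, where both C1qa and that percentile lay below the brightest negative control spot (8.05 and 7.34), so passing there does not show a signal above background. The C1qa probe carried a looser scanner mark there, for a positive and significant signal, as the C1qc probe also did on replicate 1. C1qb read higher than 87, 84, 88 and 78 of the 96 ERCC probes and passed the 95th percentile on no array. C1qc read higher than 3, 25, 20 and 0 of them on replicates 1 to 4, so it lay below nearly all control probes on replicates 1 and 4 and in their lower part on replicates 2 and 3. On single arrays 6, 3, 6 and 6 of the 9 genes passed this threshold on replicates 1 to 4, against 63.3%, 24.6%, 36.2% and 60% of all named genes. On all 4 arrays it was 3 of 9 genes (C1qa, Cfb and Cfp), beside 20% of all. On replicates 1 and 4 together it was 6 of 9, beside 55.8%. Among the other genes that passed on all arrays was Cd3g, a T cell receptor subunit used here as a marker of another cell type, with signals of 8.33, 1259, 246 and 6.05.

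C1qa and C1qb were each printed on 10 spots, so their signal on an array could be judged from repeated spots. On replicate 1, 7 of 10 C1qa spots exceeded the ERCC 95th percentile, with signals from 3.15 to 13.1. Replicate 4 gave the same count, with signals from 3.15 to 12.9. On replicate 2 all 8 usable C1qa spots passed, from 1157 to 1331, and on replicate 3 it was 5 of 9. For C1qb the counts were 4 of 10, 0 of 9, 2 of 9 and 2 of 10 on replicates 1 to 4. The SD between C1qa spots was 0.74 and 0.67 log2 units on replicates 1 and 4, against 0.07 on replicate 2 and 0.28 on replicate 3. No C1qa or C1qb spot was flagged on replicate 1 or 4.

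**Figure D2:**
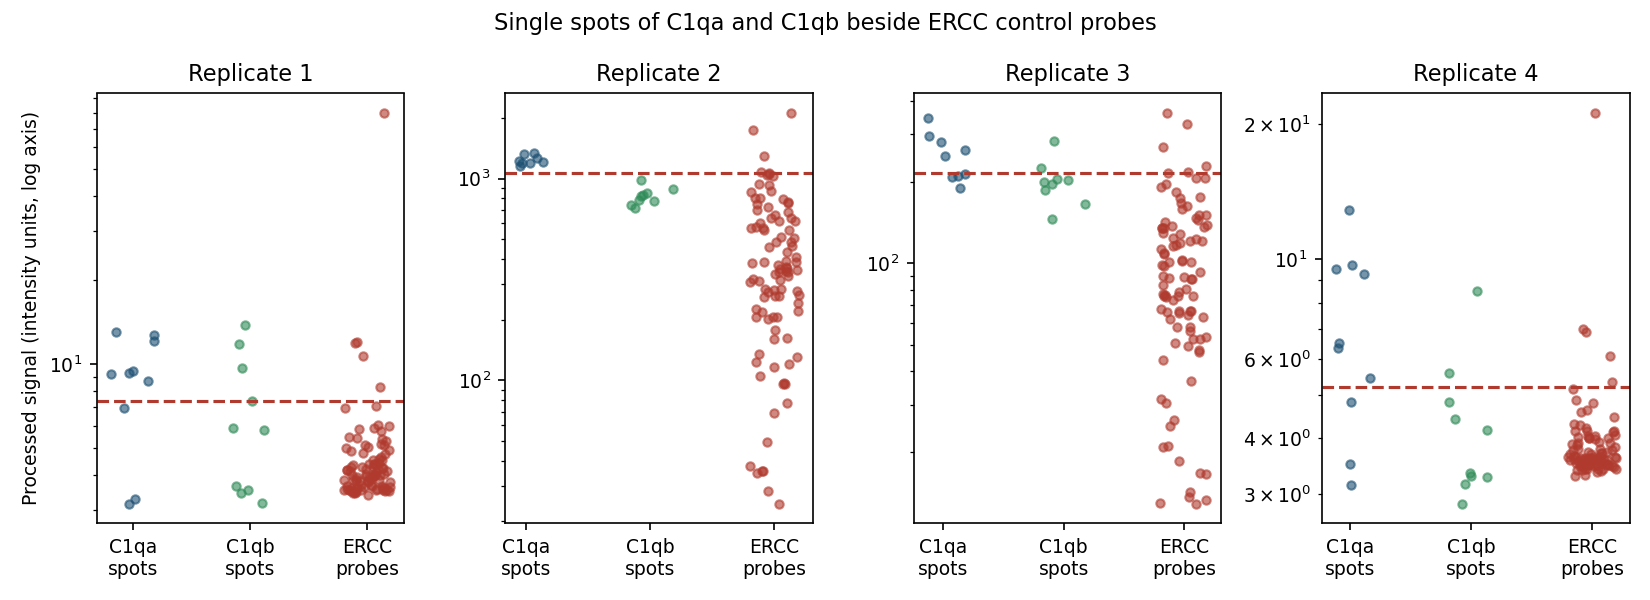
Single spots of the C1qa and C1qb probes beside the 96 ERCC control probes (each the mean of its spots) on each array, as processed signal on log axes whose range differs between panels; points are spread sideways for visibility. The dashed line is the 95th percentile of the ERCC probes, which 7, 8, 5 and 7 of the C1qa spots and 4, 0, 2 and 2 of the C1qb spots exceed on replicates 1 to 4.

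Cfp encodes properdin, which stabilises the C3-cleaving enzyme of the alternative pathway. Its signals were 3894, 2049, 2426 and 2538 on replicates 1 to 4. It exceeded all 96 ERCC probes on replicates 1, 3 and 4 and 95 of them on replicate 2. On the 4 arrays 95.9%, 93.7%, 96.6% and 96.4% of gene probes had a lower signal, so the place of Cfp on the array moved little.

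Cfb encodes factor B, the protease of the alternative pathway enzyme. Its signals were 256, 1989, 392 and 171 on replicates 1 to 4, highest on replicate 2. Factor B exceeded the ERCC 95th percentile on all 4 arrays. Its place on the array was 82.4%, 93.4%, 87.4% and 84.2% of gene probes lower, and here replicate 2 stood highest. With Cfp and C1qa it was among the 3 of 9 genes above that threshold on every array.

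C2 encodes the protease that joins C4b to form the C3-cleaving enzyme of the classical and lectin pathways, and its gene lies next to Cfb. The C2 signals were 1291, 576, 585 and 522 on replicates 1 to 4. Replicate 1 was highest and the other 3 lay close together. On replicate 2 C2 read higher than 69 of the 96 ERCC probes and so did not pass their 95th percentile, while it exceeded all 96 on the other arrays. Its place fell on replicate 2 alone, at 60.1% of gene probes lower against 91.8%, 91.2% and 90.7% on replicates 1, 3 and 4.

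C3 is the central component that all routes cleave. Its signals were 23.1, 936, 282 and 13.4 on replicates 1 to 4, in the same order of arrays as the ERCC probes. C3 read higher than 95, 87, 94 and 95 of the 96 ERCC probes and passed their 95th percentile on replicates 1, 3 and 4. By the scanner flag it missed replicate 4, and without that array 5 of 9 genes were flagged on all remaining arrays, against 46.7% of all named genes. The count stayed at 4 without replicate 1, 2 or 3, where 42.7%, 42.6% and 45% of all named genes were called. The looser mark, for a positive and significant signal, was given to 7 of 9 genes on all 4 arrays and to 59.8% of all. C1qa was among the 7, and C3ar1 counted only over its 2 probes jointly, each of which missed an array. On some array 9 of 9 genes were flagged, as were 93.5% of all. A stricter limit, set from the dimmest spike-in probe, left Cfb and Cfp, 2 of 9 genes against 18.9% of all.

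C5ar1 and C3ar1 encode the receptors through which C5a and C3a act on leukocytes. The C5ar1 signals were 1075, 619, 455 and 750.3 on replicates 1 to 4. It exceeded all 96 ERCC probes on replicates 1, 3 and 4 and 72 of them on replicate 2, the only array where it did not pass the 95th percentile. Its place on the array was 91.0%, 62.8%, 89.0% and 92.4%. The brighter C3ar1 probe on replicate 2 had signals of 3.36, 225, 13.2 and 3.12. The second had 5.48, 157, 12.4 and 4.86. The C3ar1 probes agreed in the flag: each was flagged on replicate 2 alone, where 27 and 18 of the 96 ERCC probes read lower. By the looser mark they differed on replicates 1 and 3. No C3ar1 probe passed the 95th percentile of the control probes on any array, and on replicate 3 it read higher than 2 and 0 of the 96, and the number of arrays limits the precision.

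For the 4 genes flagged on all arrays, a level was computed as the log2 signal minus the 75th percentile of the array. The level of Cfp was 5.46, 1.27, 3.46 and 5.81 on replicates 1 to 4 (4.00 ± 2.09, SD, n = 4). C2 had levels of 3.86, -0.56, 1.41 and 3.53 (2.06 ± 2.06, SD, n = 4). C5ar1 had levels of 3.60, -0.46, 1.05 and 4.05 (2.06 ± 2.14, SD, n = 4). For these 3 genes replicates 1 and 4 were high and replicate 2 was lowest. The median over the 12899 probes flagged on all arrays moved the same way, with replicate 1 minus replicate 2 at 2.80 log2 units. The same difference was 4.19 for Cfp, 4.43 for C2 and 4.06 for C5ar1, so its direction is not particular to them. Cfb had levels of 1.53, 1.23, 0.83 and 1.92 (1.38 ± 0.46, SD, n = 4), with replicate 3 lowest.

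The spread of these levels turned on the scaling. When the arrays were scaled on the 3 brightest spike-in probes, added RNAs that do not come from the cells, the SD of Cfp was 0.23 in place of 2.09. That of C2 was 0.46 and that of C5ar1 0.50, while the median over all probes went from 1.47 to 0.86. The SD of Cfb went the other way, from 0.46 to 1.72, since Cfb was then at -1.99 on replicate 2 and between -5.71 and -4.75 on the other arrays. With quantile normalization C2 and C5ar1 stood at -1.52 and -1.30 on replicate 2 and between 1.98 and 2.74 on the others.

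**Figure D3:**
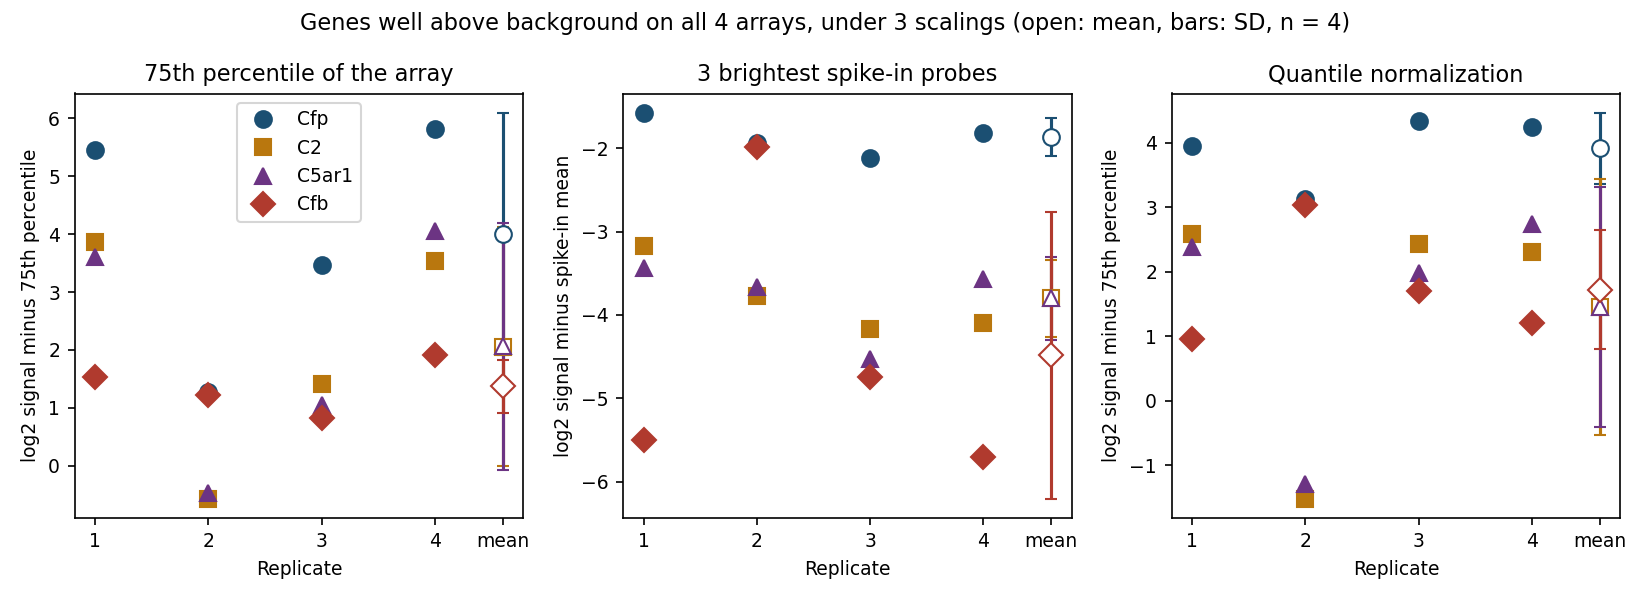
Level of Cfp, C2, C5ar1 and Cfb on each array under 3 scalings, in log2 units; filled symbols are single arrays, and open symbols with bars are the mean and SD over the 4 arrays. Under scaling on the 75th percentile Cfp, C2 and C5ar1 are lowest on replicate 2, and under spike-in scaling Cfb alone of the 4 is more than 2 log2 units higher on replicate 2 than on the other arrays.

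The spread of each probe over the 4 arrays was tested against limma's trended prior variance. The test called 0 of the 4 genes, and the smallest unadjusted p was 0.23 for C5ar1 (limma, adjusted p = 0.88). Over all 12899 probes tested, 0 were called (0%), and 679 had an unadjusted p under 0.05. Under other scalings some unadjusted p-values of the 4 genes fell below 0.05, as they did for 248 of the 12899 probes with quantile normalization, 520 with scaling on detected probes and 467 with spike-ins. They were 0.030 for C2 and 0.038 for C5ar1 with quantile normalization 0.032 for Cfb with scaling on detected probes and 0.041 for Cfb with spike-ins (limma). Over the alternatives the smallest adjusted p of a member ranged from 0.84 to 0.95. A miss does not show that the replicates were alike, and the median SD over all probes moved with the scaling, from 1.47 log2 units to 0.47 on detected probes, 0.86 on spike-ins and 0.88 with quantile normalization.

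Replicates 1 and 4 could be compared at a low control signal. On the level scale replicate 1 minus replicate 4 was 0.34 for C2, -0.39 for Cfb, -0.35 for Cfp and -0.45 for C5ar1. The median absolute difference over all 12899 probes was 0.21. Under spike-in scaling the same differences were 0.93, 0.21, 0.24 and 0.14. Their counterpart over all probes had a signed median of 0.55, which is not an absolute difference. The scalings differ by a constant between these arrays. Relative to the median of all probes, which was -0.04 on the level scale, C2 was higher on replicate 1 and the other 3 genes were higher on replicate 4.

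The behaviour of replicate 2 was also read from probes of like brightness. For each of the 4 genes flagged on all arrays, all gene probes whose signal on replicate 1 lay within 1.25-fold of its own were taken. This description was added after the data were seen. Some of these probes lie outside a 5th to 95th percentile range on every array by construction. For Cfb these were 1387 probes, and on replicate 2 their median was 511 and their 5th to 95th percentile 179.0 to 1479, while Cfb read 1989. On replicate 3 Cfb lay inside the range, at 392 against 59.7 to 408. On replicate 4 the same probes had a median of 131 and a range of 76.7 to 212, with Cfb at 171. For C2 there were 887 such probes, with a median of 1131 and a range of 716 to 2135 on replicate 2, while C2 read 576. On replicates 3 and 4 C2 lay inside the range. Cfp and C5ar1 lay inside the range on each of replicates 2, 3 and 4, C5ar1 near its lower end on replicate 2, at 619 against 596. Each of these genes has a single spot on an array, so an array effect at that spot and a difference between the cultures cannot be told apart.

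**Figure D4:**
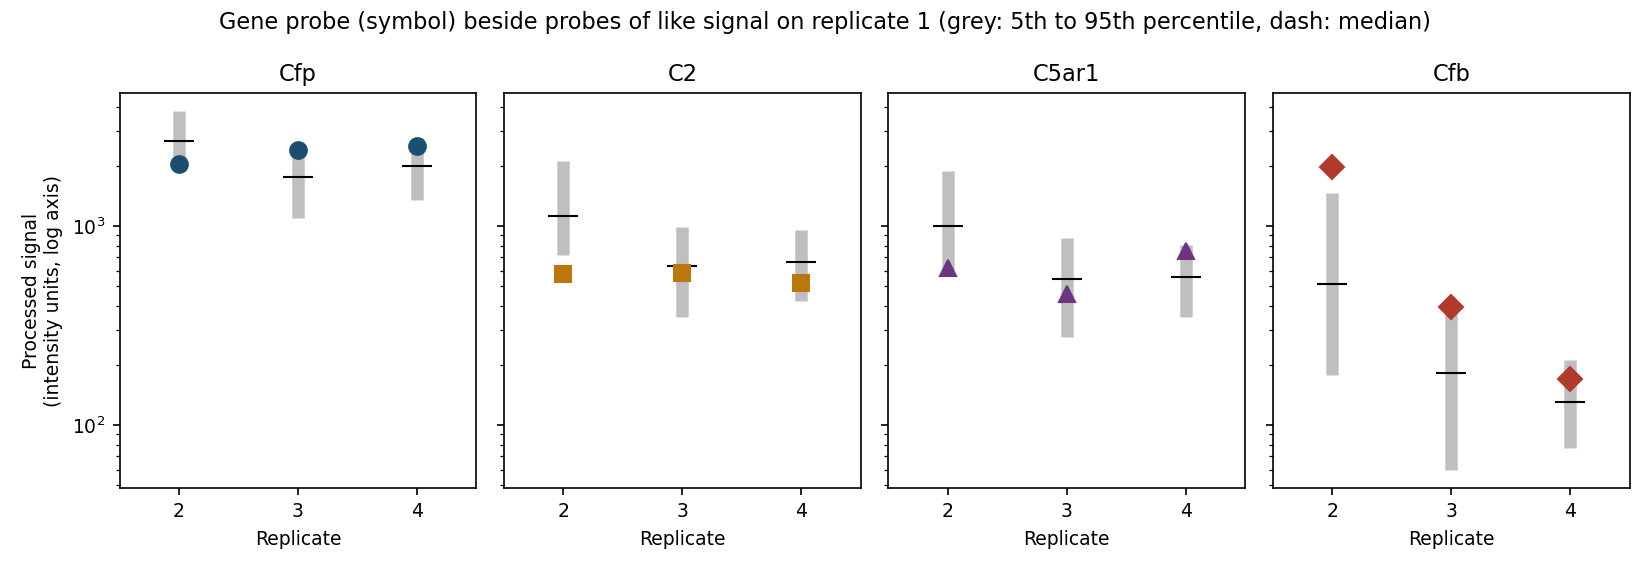
Processed signal (log axis) of Cfp, C2, C5ar1 and Cfb on replicates 2, 3 and 4 (coloured symbols) beside the gene probes that read within 1.25-fold of the same gene on replicate 1 (grey bars: 5th to 95th percentile, dash: median). On replicate 2 Cfb lies above its bar (1989 against 1479) and C2 below its bar (576 against 716).

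Genes whose pattern over the 4 arrays was most like the mean of Cfp, C2, C5ar1 and Cfb were sought among 6904 genes whose brightest probe was flagged on all arrays. The 5 nearest were Rbm10, Cidec, Kxd1, Repin1 and Dync2i2, with root mean square differences of 0.0079, 0.024, 0.030, 0.032 and 0.038 log2 units. In all, 117 of the 6904 genes lay within 0.1. The 4 genes lay farther from their own mean, at 0.42 for C2, 0.43 for Cfp, 0.43 for C5ar1 and 1.17 for Cfb. The mean includes Cfb, and none of the 4 genes lay within 0.1 of it, so genes near it need not follow any of the 4. Cfb lay farthest from it.

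Other genes of the cascade were taken from a list of 41, of which 35 were measured. On all 4 arrays 13 of 35 (37.1%) were flagged, against 42.4% of all named genes. The same 13 were flagged on replicates 1 and 4, where 45.9% of named genes were, and so were the same 4 of the 9 genes. Above the ERCC 95th percentile on all 4 arrays were 7 of 35 (20%), the same share as among all named genes (20%): C4b, C6, Cfd, Cd55, Vsig4, C1qbp and Calr. The counts by role below rest on few genes each, and differences between roles were not tested.

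In the early classical pathway 0 of 4 genes were flagged on all arrays, against 42.4% of all named genes. C1s, a protease of the C1 complex, had signals of 4.13, 1133, 170 and 4.35 at its brighter probe. C1r, its partner, had 35.3, 29.2, 17.1 and 7.18 and was flagged on replicate 1 alone. C4a and C4b, near-identical copies whose probes may share signal, were flagged on replicates 2 and 3 alone, and C4b passed the ERCC threshold on all 4 arrays only over its 2 probes jointly, each of which missed an array or more. With C1q counted in, no gene of the C1 complex or C4 was flagged on both replicate 1 and replicate 4, against 45.9% of all named genes.

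Factor D is the protease that activates factor B in the alternative pathway. Cfd, which encodes factor D, had signals of 2722, 2271, 1973 and 1221 on replicates 1 to 4, and a level of 3.57 ± 1.64 (SD, n = 4). It exceeded the ERCC 95th percentile on all 4 arrays. Cfi, the protease that inactivates C3b, was flagged on replicate 2 alone.

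Among lectin pathway genes 2 of 7 were flagged on all arrays, against 42.4% of all named genes. Fcna, which encodes ficolin A, had signals of 312, 485, 301 and 117. Masp1, a lectin pathway protease, was called through 1 of its 3 probes, at 45.0, 817, 131 and 18.1, and the others were flagged on replicates 2 and 3 alone. The collectins Mbl1 and Mbl2 and the protease Masp2 were not flagged on replicate 1 or 4.

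None of the 4 terminal pathway genes (C6, C8a, C8b and C9) was flagged on replicate 1 or 4. Of all named genes, 52.2% were flagged on replicate 1 and 46.2% on replicate 4. C6 is the exception on the ERCC scale: its brighter probe read 13.8, 3529, 533 and 11.2 and passed on all 4 arrays, while its other probe passed on none. Serping1, the C1 inhibitor, read 30.1, 119, 24.4 and 3.61 and was flagged on replicates 1 and 2.

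Regulators on the cell surface were flagged on all arrays for 3 of 4 genes, against 42.4% of all named genes. Cd59b, which blocks the membrane attack complex, had signals of 1315, 956, 359 and 661. Cr1l, the rodent regulator Crry, had signals of 1012, 1041, 565 and 394. Cd55, which speeds the decay of the C3-cleaving enzymes, had 5 probes that disagreed: the brightest was flagged on all 4 arrays, at 176, 1233, 304 and 93.5, and the others on 1, 2, 2 and 3 arrays. Cd46 was flagged on replicate 2 alone at each of its 3 probes.

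Receptors for complement fragments were flagged on all arrays for 4 of 5 genes, against 42.4% of all named genes. Vsig4, a macrophage receptor for C3b, had signals of 3554, 2478, 848 and 1406 and passed the ERCC threshold on all 4 arrays. C5ar2, the second C5a receptor, was flagged on all arrays at both probes, with 282, 389, 155 and 147 at the probe of higher mean log2 signal. Its other probe had 94.3, 946, 208 and 53.1 and read higher on replicates 2 and 3. Itgam and Itgb2, the chains of complement receptor 3, had levels of -0.09 ± 1.49 and 2.07 ± 1.86 (SD, n = 4). The Itgam level is that of its brighter probe, and its other probe, also flagged on all arrays, had -0.70 ± 0.60 (SD, n = 4). Cr2, the receptor of B cells, was not flagged on replicate 1 or 4. Of the C1q-binding proteins, C1qbp and Calr passed both thresholds on all 4 arrays, and Cd93 was flagged on replicate 2 alone.

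**Figure D5:**
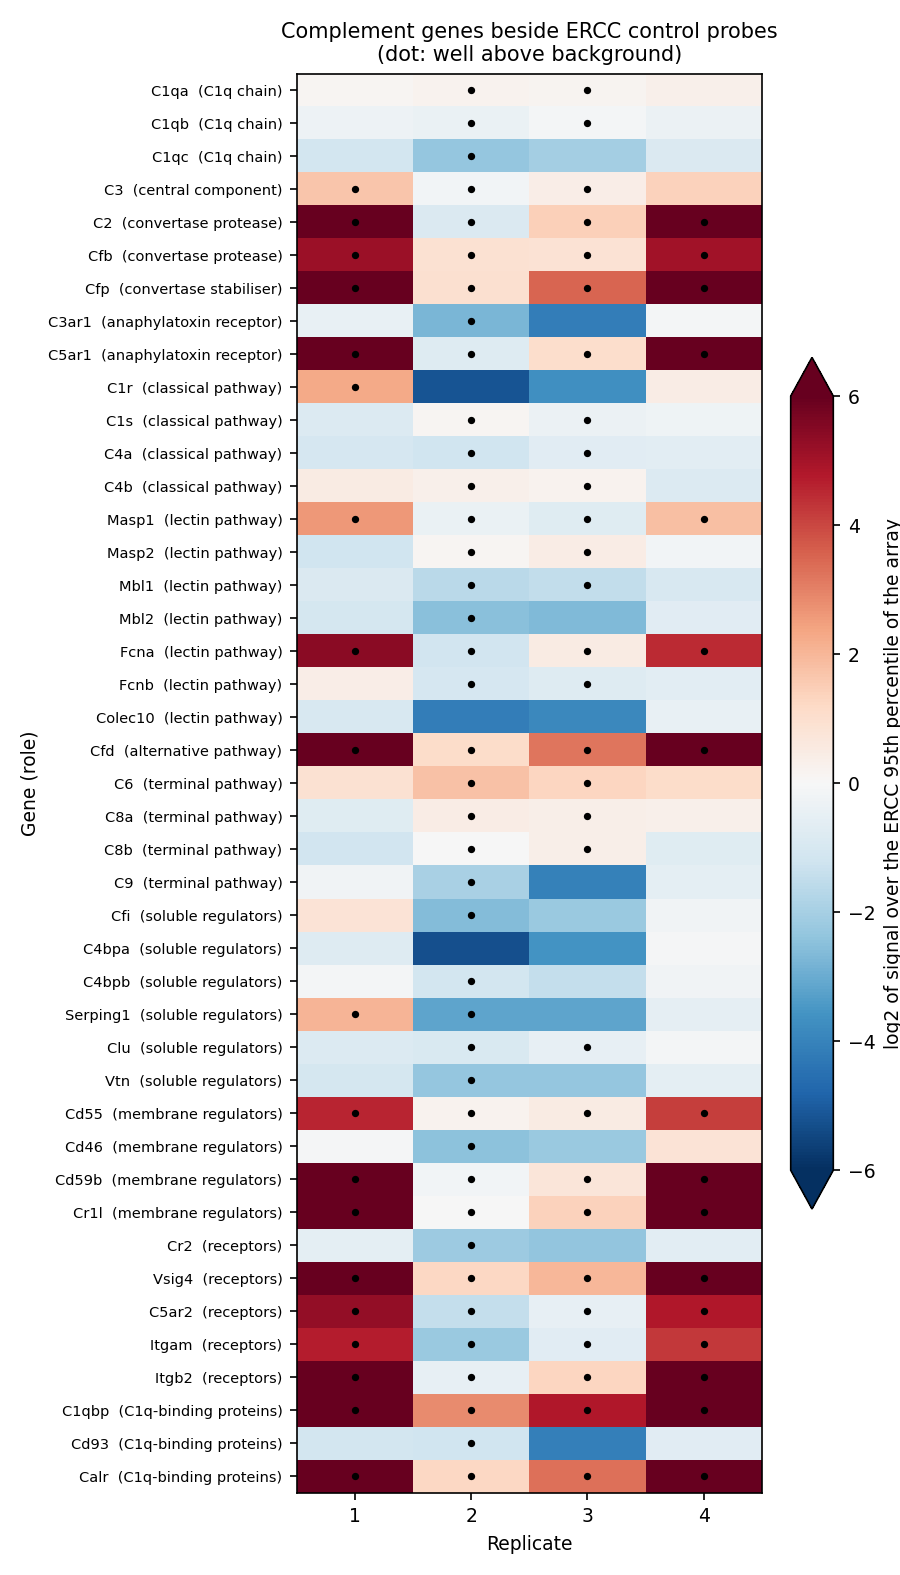
Signal of the brightest probe of each of the 9 genes and of other measured complement genes, as log2 of the ratio to the 95th percentile of the ERCC control probes on the same array (colour scale limited to -6 and 6); dots mark genes with a flagged probe. Of the 9 genes, C1qa, Cfb and Cfp are above the threshold on all 4 arrays, while C1qb, C1qc and C3ar1 are below it on all 4. Of the other genes shown, C6, Cfd, Cd55, Vsig4, C1qbp and Calr are above it on all 4.

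Most markers of the labelled cell type were flagged. Of 12 measured alveolar macrophage markers, 10 were flagged on all 4 arrays, against 42.4% of all named genes. Cd68, Lyz2, Pparg and Siglec1 were among these 10, and Adgre1 and Marco were not flagged on replicate 1 or 4. Since the liver is the main source of complement, hepatocyte markers were counted too: 0 of 8 were flagged on all arrays, and albumin (Alb) read 3.47, 538, 91.5 and 3.43. The summed signal of the hepatocyte markers was 69.3, 5992, 1626 and 43.9 on replicates 1 to 4, in the order of the control probes. That of the macrophage markers, most of it from Lyz2, was 94949, 65803, 57309 and 52549, and sums over different probes are not compared. By the ERCC threshold on all 4 arrays, 3 of 12 macrophage markers passed (Cd68, Lyz2 and Pparg) and 1 of 8 hepatocyte markers (Ambp). Of all named genes, 20% passed it. Flagged on all arrays were 0 of 6 epithelial, 0 of 4 fibroblast, 1 of 5 T and NK cell (Nkg7), 1 of 2 B cell (Pax5) and 1 of 4 neutrophil and mast cell markers (S100a8). The part of these 3 markers in the complement signals was not tested. No gene spot was saturated.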

How the data were processed

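RNA of 4 cultures was labelled with Cy3 and read on 1-colour Agilent rat arrays. The intensity used here is the processed signal of Feature Extraction 11.0.1.1. It is corrected for background within each array and not normalized between arrays, per the file headers. The deposited value table equals the median spot intensity on all 62976 spots of each array. The array design names an older build, so no coordinates of probes were used.

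Control spots and outlier spots were left out, log2 signals of the spots of a probe were averaged, and 213 of 45598 probes with no usable spot on an array were dropped. A probe was well above background where more of its usable spots were flagged than not, and a gene where any probe was. Probes were named by accession through RefSeq (GRCr8), 21023 of 45385. Levels are log2 signals minus the 75th percentile, with the brightest probe standing for a gene. Spread was tested with limma 3.58.1 (F test, Benjamini-Hochberg, threshold 0.05), a procedure tested on simulated data. No test between groups was possible with 1 group.

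Named are the 9 genes, other complement genes well above background on all arrays, further genes by role, and the 5 genes of nearest pattern. Serping1, Mbl1, Mbl2, Masp2, Cr2, Cd93 and Cd3g were chosen after their values were seen. Values of 1 other complement gene are not reported here, though counts include it. Genes and lists were chosen with earlier results of these data known. Alternatives covered detection, scaling, background correction (normexp, offset 50, on median spot signals), probes and replicates; the ERCC threshold and the probes of like brightness were added after the data were seen.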

Additional observations from a re-analysis of the deposited data

How the results depend on the processing

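The count of 4 of 9 genes well above background on all arrays stayed between 4 and 5 when 1 replicate was left out (5 without replicate 4, through C3), was 4 with replicates 1 and 4 alone and was 3 above the ERCC threshold, where C1qa came in and C2 and C5ar1 went out. It was 7 with the looser flag for a positive and significant signal, where C3ar1 came in only over its 2 probes jointly. The count was 9 when any array sufficed and 2 with a limit set 3 SD over the dimmest spike-in. The other complement genes gave 13 of 35 without any 1 replicate, 18 with the looser flag, 33 on any array, 6 on the spike-in threshold and 7 on the ERCC threshold. The median of the 4 levels was 2.06, ranged from 1.48 to 2.92 without 1 replicate, was 3.76 on replicates 1 and 4 alone, and was -0.77 when scaled on detected probes and -3.80 on spike-ins, 2 settings that by construction set another zero. The levels of Cfp, C2, C5ar1 and Cfb each moved beyond 1 SD under these 2 settings and within it under the other 10. No spread call was made among the 4 genes under any of 10 alternatives (over all probes 2 were called with spike-ins). The nearest genes were recomputed only with scalings that shift a whole array, which cannot change them. No paired analysis was possible because the files hold 1 group. The high control signal of replicates 2 and 3 limits what a flag there can show.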
